A study of Homo sapiens with 32 samples.

Results

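The histone gene cluster on the short arm of chromosome 6 holds most of the human genes for replication-dependent histones, and its H3K27ac was followed through drug treatment of neuroblastoma cells. Of the 92108 regions that the authors compared with DiffBind, 114 lie on chromosome 6 between 25.9 and 28 Mb (hg19). A region was taken as part of the cluster when it contained a histone gene, or when its nearest protein-coding start site, at most 10 kb away, belonged to one. The annotation names these genes H1-, H2AC, H2BC, H3C or H4C. The rule gave 30 regions: 17 cover at least 1 histone start site and 13 lie beside one. It used position and gene names only, not the H3K27ac values. At its edge, the farthest region inside lies 9771 bases from H2AC12 and the nearest one outside lies 11062 bases from H2BC13.

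The cells were SK-N-BE(2)C, an established neuroblastoma line with amplified MYCN, so all groups share 1 line and its genome. They were treated for 5 days with DMSO (the drug solvent and control), palbociclib (PB, a CDK4/6 inhibitor, 1 µM), all-trans retinoic acid (RA, 10 µM) or both drugs together (PB+RA). Each group has 4 ChIP libraries, which the study's methods call biological replicates, and 4 input libraries, against which the authors called peaks. The comparisons with PB, RA and PB+RA set a treatment against the same 4 DMSO libraries, so they are not independent of each other.

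Replication-dependent histone genes supply the core histones H2A, H2B, H3 and H4 and the linker histone H1 that package newly made DNA. They have no introns and mostly no poly(A) tail, they are transcribed mainly in S phase, and cyclin E-CDK2 acting on the coactivator NPAT links them to the cell cycle. H2A and H2B genes often sit head to head and share the stretch between them as a promoter. H3K27ac, acetylation of lysine 27 of histone H3, marks active promoters and enhancers, so here the mark was measured on the genes that encode histones themselves.

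Promoter sequences show what these genes share beyond position. Given below are 6 of them. H4C13, H3C11 and H1-5 come from the start-site block with the largest decreases per library under RA and PB+RA. The stretch between H2BC4 and H2AC6 comes from a pair that went the other way with PB+RA. The start sites of H1-6 and H4C7 lay under no peak and in no cluster region. Each single-gene sequence is the 250 bases before the start site on the minus strand of GRCh37 (hg19), 5′ to 3′: H4C13 at chr6:27841313-27841562, H3C11 at chr6:27840125-27840374, H1-5 at chr6:27835367-27835616, H1-6 at chr6:26108364-26108613 and H4C7 at chr6:26247225-26247474. The shared stretch is the plus strand of chr6:26124155-26124399. Capitals mark matches on either strand. The motifs searched were the octamer ATTTGCAT, the NF-Y box CCAAT, the core promoter element of letters TATAAA and the E2F-type motif TTTNGCGC. The last has no match in these sequences.
H4C13: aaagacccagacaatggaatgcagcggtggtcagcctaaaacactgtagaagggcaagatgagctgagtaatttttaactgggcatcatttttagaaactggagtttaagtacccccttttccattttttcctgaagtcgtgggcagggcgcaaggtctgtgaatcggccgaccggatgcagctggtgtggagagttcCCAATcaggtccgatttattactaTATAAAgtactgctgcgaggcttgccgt
H3C11: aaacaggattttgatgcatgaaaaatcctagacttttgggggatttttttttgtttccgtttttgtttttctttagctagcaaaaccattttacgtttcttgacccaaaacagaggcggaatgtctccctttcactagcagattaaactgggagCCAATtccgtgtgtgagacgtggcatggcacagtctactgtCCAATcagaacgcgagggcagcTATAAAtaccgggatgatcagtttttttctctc
H1-5: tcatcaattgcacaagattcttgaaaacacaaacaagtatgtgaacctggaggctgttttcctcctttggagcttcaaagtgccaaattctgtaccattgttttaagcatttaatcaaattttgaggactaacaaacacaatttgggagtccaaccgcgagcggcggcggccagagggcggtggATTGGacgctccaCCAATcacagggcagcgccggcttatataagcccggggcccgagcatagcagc
H2BC4 to H2AC6: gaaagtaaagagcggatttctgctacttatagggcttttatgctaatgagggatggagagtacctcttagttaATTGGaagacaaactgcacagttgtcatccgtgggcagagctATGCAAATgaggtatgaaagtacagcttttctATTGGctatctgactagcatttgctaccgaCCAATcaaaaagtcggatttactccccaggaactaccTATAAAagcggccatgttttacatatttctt
H1-6: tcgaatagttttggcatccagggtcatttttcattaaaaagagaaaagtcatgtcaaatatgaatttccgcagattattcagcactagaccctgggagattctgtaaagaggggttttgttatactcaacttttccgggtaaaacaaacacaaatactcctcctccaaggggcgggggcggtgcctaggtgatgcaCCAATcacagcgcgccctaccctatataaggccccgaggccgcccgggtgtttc
H4C7: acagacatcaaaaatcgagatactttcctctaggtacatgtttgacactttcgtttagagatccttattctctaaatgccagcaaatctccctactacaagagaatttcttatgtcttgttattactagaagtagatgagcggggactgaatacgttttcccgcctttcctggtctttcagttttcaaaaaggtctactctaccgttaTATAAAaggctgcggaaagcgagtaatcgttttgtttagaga

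CCAAT was in 43 of 50 histone promoters (86.0%), against 34.3% of 19856 protein-coding promoters of the same length. All H1, H2A, H2B and H3 promoters held it, but only 4 of 11 H4 promoters did. TATAAA was in 34 of 50 (68.0%, against 9.27%). The octamer, a motif bound by POU2F1, was in 9 of 11 H2A and 9 of 12 H2B promoters and in none of H1, H3 or H4 (18 of 50 in all, 36.0%, against 1.54%). TTTNGCGC, an E2F-type motif, was in 12 of 50 (24%, against 1.93%). A gene pair that sits head to head reads partly the same bases, so its promoters are not independent, and a match describes the letters and not a bound site.

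Values come in 2 kinds. The authors' mean concentration is the log2 of the normalised read count that DiffBind gives for a region and group, 1 value a group and so without an error. For each library, the peak enrichment is the authors' fold enrichment of its broad peaks over input, averaged across the region with bases outside a peak at 0, and scaled between libraries. A value of 0 therefore means that no peak was called. Differences between groups of libraries are on the log2(enrichment + 1) scale and were tested with limma across all regions. A region was called changed at a Benjamini-Hochberg adjusted p under 0.05 and a difference beyond 0.5.

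The libraries held 64516 to 104392 peaks each, and read depth per library is unknown here. Start sites of 8 adrenergic neuroblastoma genes, HAND2, GATA3 and ISL1 among them, lay under a peak in all 16 libraries. So did those of the mesenchymal genes FN1, VIM, SNAI2 and TWIST1, while that of PRRX1 was under none. Among immune markers, PTPRC and CD3E were under no peak in any library, SPI1 was under one in 3 and CD14 in 16. Of 4 endothelial markers, KDR and TEK were at 0 libraries and CDH5 and VWF at 1 each. DMSO replicate 3 had the highest enrichment of the 4 DMSO libraries in 15 of the 17 start-site regions. No library pair shared identical peaks.

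In DMSO, most of the cluster carried a strong mark. The 17 start-site regions were 3884 to 35585 bases wide, 12 of them held more than 1 histone start site, and each had a peak in all 16 libraries. Per kb of region, their mean concentration in DMSO had a median of 7.22 on the log2 scale, against 6.48 for all regions over a protein-coding start site. That median is at percentile 76.5 of those regions. The 13 regions beside start sites were 355 to 2500 bases wide and had a median of 4.45 per kb. Between 45 and 47 of the 50 histone start sites lay under a peak in each DMSO library. Of the others, the linker histone gene H1-6, which is known from testis, and the H4 gene H4C7 were under none in any of the 16 libraries, and H1-1 was under one in 1 RA library only. Their promoters do not stand apart by these motifs: H1-6 holds CCAAT and H4C7 holds TATAAA.

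The mark stayed on these genes in all groups. The number of the 50 histone start sites under a peak was 44 to 47 with PB, 47 to 48 with RA and 46 in each PB+RA library, ranges that touch or overlap the DMSO range.

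Mean concentrations across the cluster were lower than in DMSO with each treatment. The median difference over the 30 regions was -0.34 after PB, -0.41 after RA and -0.28 after PB+RA, on the log2 scale, against -0.09, -0.01 and -0.02 over all regions. With PB, 9 of 30 lay more than 0.5 lower, against 26.8% of all regions. With RA, 8 of 30 did, against 21.5%. With PB+RA, 12 of 30 did, against 31.7%. These shares are close to the background, and no cluster region lay more than 0.5 higher with PB, RA or PB+RA, where 21, 27.9 and 32.1% of all regions did. Such increases were rarer at regions over a protein-coding start site, at 3.37, 10.4 and 11.6%. Among those at least as strong in DMSO as the weakest histone start-site region, the shares were 1.01, 3.44 and 6.98%. All 17 start-site regions were lower with PB, where 55.2% of all regions and 83.5% of those over a protein-coding start site were. With RA all 17 were lower, against 50.5 and 69.0%. With PB+RA 13 of 17 (76.5%) were lower, against 50.6 and 64.3%.

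The size at start sites was small. The 17 regions had a median difference of -0.27 after PB, -0.42 after RA and -0.22 after PB+RA, and 1, 3 and 5 of them were more than 0.5 lower. All regions over a protein-coding start site had medians of -0.40, -0.17 and -0.20, so with PB the histone start-site regions lay nearer 0 than those. The 84 other regions of the same window had medians of -0.11, 0.23 and 0.29. The 13 regions beside histone start sites had medians of -0.62, -0.32 and -0.72, with 8, 5 and 7 of them more than 0.5 lower.

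**Figure D1:**
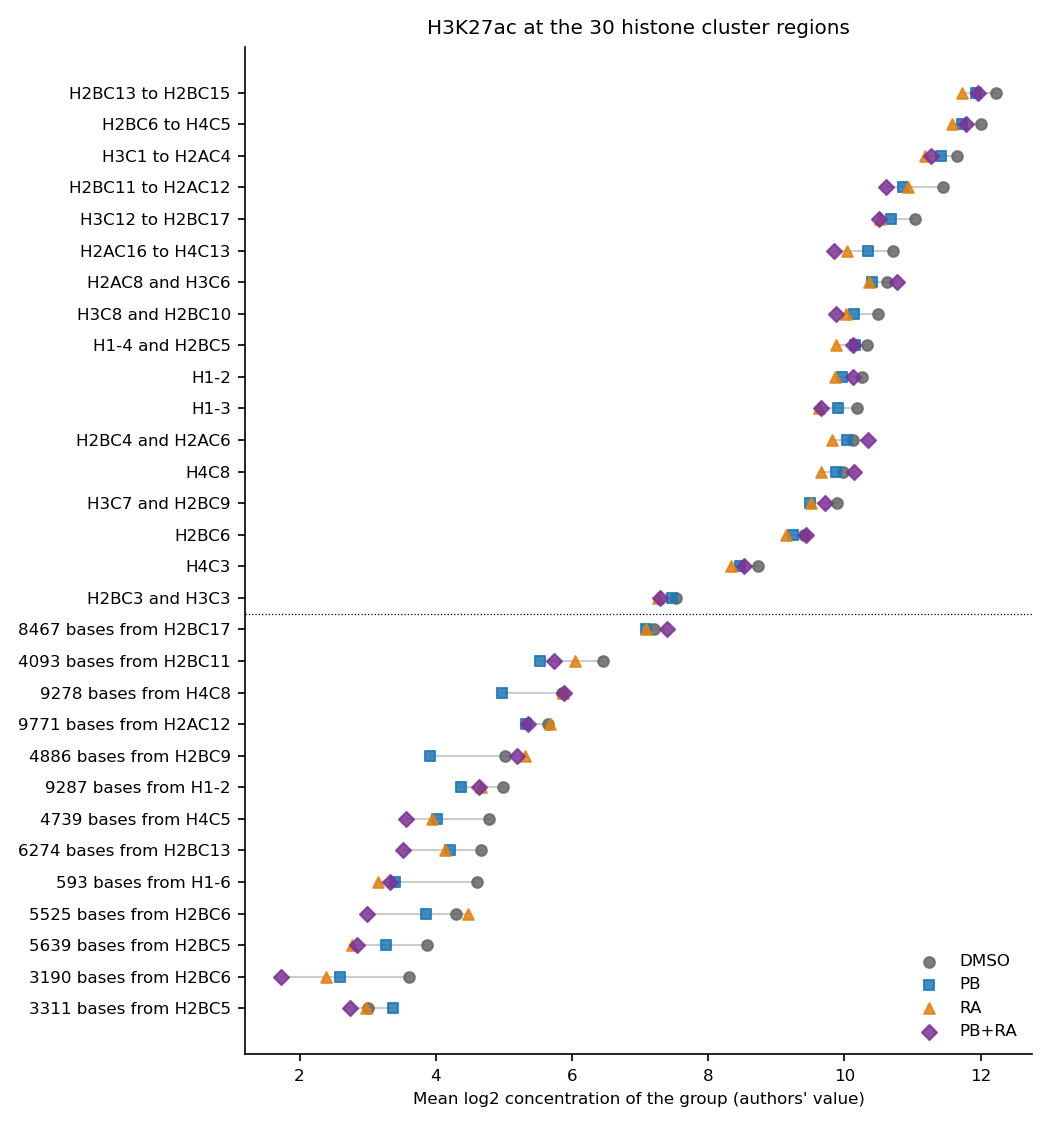
Authors' mean log2 concentration (x axis) of each of the 30 cluster regions (y axis), with 1 symbol for each group and a dotted line between regions over start sites (above) and beside them (below). At all 17 regions over histone start sites the PB and RA symbols lie to the left of DMSO.

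Base composition moved with these differences across the genome. In 10 classes of regions by GC content, the median difference for PB+RA ran from 0.99 in the lowest class (25.3 to 36.8% GC) to -0.87 in the highest (59.3 to 83.8%), and for PB from 0.56 to -0.86. RA ran from 0.59 to -0.17. The histone start-site regions are low in GC for start sites, 40.3 to 47.1% with a median of 43.3, where all start-site regions have a median of 53.9. The class with 15 of the 30 members (42.1 to 44.6%) had medians of 0.14, 0.17 and 0.38 for PB, RA and PB+RA. Against the median of their own GC class, the 17 start-site regions had median differences of -0.40, -0.56 and -0.58, and all 17 were lower with each treatment. Those classes also hold regions away from start sites. Without centring, the 823 start-site regions at least 5 kb wide in the same GC range had medians of -0.14, -0.10 and 0.06. The 17 had -0.27, -0.42 and -0.22. Whether the GC trend is technical was not tested.

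Per library, few cluster regions passed the test with PB. Enrichment was called decreased in 2 of 30 regions and increased in 0, against a background of 3.97% decreased and 5.18% increased. Neither of the 2 covers a start site. In no region of the cluster were all PB libraries above all DMSO libraries, against 6.2% of all regions. In the region 9278 bases from H4C8 (chr6:26295040-26297539), DMSO libraries read 1.02, 1.43, 0.775 and 3.01, and PB libraries 0, 0.811, 0.269 and 0. These groups overlap only at 0.775 and 0.811 (log2 difference -0.98, adjusted p = 0.0379 by limma). The call was lost without DMSO replicate 2 or 4 or PB replicate 1, 3 or 4 (differences from -0.73 to -1.0), and under 4 other alternatives.

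With RA, 3 of 30 regions were called decreased and 0 increased, against 6.36% and 10.4% of all regions. Only 1 covers start sites. This block, from H2AC16 to H4C13 (chr6:27831743-27842900), holds genes for a histone H2A, the linker histone H1-5, an H3 (H3C11) and an H4. Its enrichment was 9.49, 10.3, 13 and 9.97 in the DMSO libraries and 6.43, 6.40, 6.82 and 6.69 in the RA libraries, with no overlap. The mean was 10.7 ± 1.57 (SD, n = 4) in DMSO and 6.59 ± 0.202 (SD, n = 4) with RA, a log2 difference of -0.61 ± 0.15 (SE; adjusted p = 0.0044 by limma). In 8 of the 17 start-site regions all RA libraries lay below all DMSO libraries, against 6.19% of all regions. A region with any DMSO library at 0 cannot do so. Only 26508 of all regions had a peak in all 16 libraries, as each of the 17 does, so the 2 shares are not alike.

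With PB+RA, 8 of 30 regions were called decreased and 0 increased, against 11.9% and 18.4%. Of these, 3 cover start sites, and 5 lie beside them. At wide start-site regions elsewhere and here (at least 5 kb, 4451 in all), 26.3% were called decreased with PB+RA, and of the 17 histone start-site regions 17.6% were. Among the 823 wide start-site regions within the same GC range, 8.87% were. In the H2AC16 to H4C13 block the PB+RA libraries read 5.10, 5.11, 5.46 and 5.89, below every DMSO, PB and RA library. Their mean was 5.39 ± 0.371 (SD, n = 4), a log2 difference from DMSO of -0.86 ± 0.15 (SE; adjusted p = 0.000116 by limma). PB libraries there read 7.48, 7.25, 10.3 and 9.35, which overlap the DMSO range (adjusted p = 0.206).

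The other 2 start-site regions called with PB+RA hold H2A, H2B and H3 genes among others. From H2BC11 to H2AC12 (chr6:27097668-27116429), DMSO libraries read 9.55, 9.47, 12.9 and 9.56 and PB+RA libraries 5.07, 4.51, 7.29 and 5.50. These do not overlap, and the log2 difference was -0.79 ± 0.16 (SE; adjusted p = 0.000509 by limma). It is the one region of the cluster where the PB libraries also all lay below DMSO (4.66% of all regions do), at 6.94, 6.79, 8.60 and 8.69, though the test was not passed (adjusted p = 0.13). At H3C8 and H2BC10 (chr6:26267837-26277439), DMSO libraries read 8.44, 10.8, 13.5 and 9.57 and PB+RA libraries 7.1, 6.09, 7.65 and 6.10. Again the groups do not overlap (log2 difference -0.57 ± 0.15, SE; adjusted p = 0.00757 by limma). Without DMSO replicate 3 the difference was -0.46 and was no longer called.

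All PB+RA libraries lay below all DMSO libraries in 5 of the 30 regions, each of them over start sites, against 8.04% of all regions. The limit given for RA, that regions with a DMSO library at 0 cannot count, applies to this share and to the 4.66% for PB. Within replicates 1 and 2 and within 3 and 4, the 3 called start-site regions differed by -0.83 and -0.89, -0.86 and -0.72, and -0.48 and -0.66 in the order above.

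The 3 start-site calls with PB+RA rest on the mean over the region. Where each region was given the enrichment of its highest peak instead, the PB+RA differences were -0.29, -0.33 and -0.33 in the order above and none was called, nor was the RA difference of -0.15 at the H2AC16 to H4C13 block. With GC classes centred, limma called 15 of the 30 regions decreased with PB+RA, 10 of them over start sites, against 11.2% of all regions. It then called 6 with RA against 8.72%, and 2 with PB against 1.82%.

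**Figure D2:**
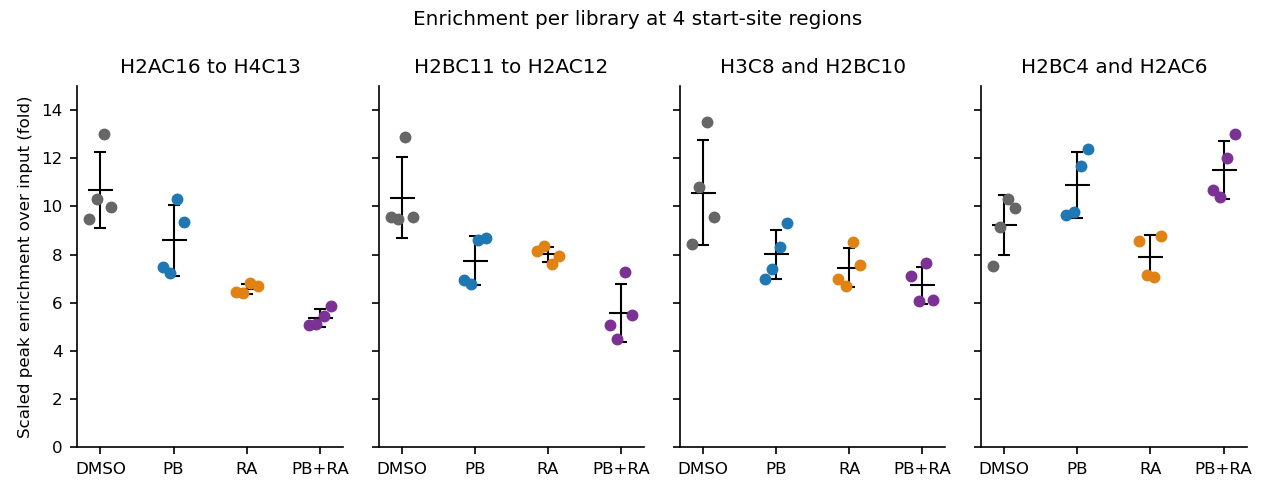
Scaled peak enrichment (fold over input) of each library at 4 start-site regions, with 1 point a library and the group mean with its SD (n = 4) in black. In the H2AC16 to H4C13 block the 4 PB+RA libraries sit between 5.10 and 5.89, below all libraries of the other groups.

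Not all start-site regions moved down. At H2BC4 and H2AC6 (chr6:26120694-26128139), the authors' mean concentration was 10.12 in DMSO, 10.04 after PB, 9.82 after RA and 10.35 after PB+RA. Its enrichment was 7.54, 9.14, 10.3 and 9.95 in DMSO and 10.7, 10.4, 12 and 13 with PB+RA, so all PB+RA libraries lay above all DMSO libraries, though the test was not passed (log2 difference 0.30, adjusted p = 0.123). No other region of the cluster had PB+RA entirely above DMSO, against 15% of all regions. RA libraries there read 8.58, 7.15, 7.06 and 8.78. At H2AC8 and H3C6 the mean concentration was 10.62 in DMSO and 10.78 with PB+RA, and at H4C8 it was 9.98 and 10.14.

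The widest region runs from H2BC13 to H2BC15 (chr6:27773278-27808862) over 9 histone start sites and had the highest concentration of the cluster in DMSO. Its mean concentration was 12.23 in DMSO, 11.93 after PB, 11.73 after RA and 11.96 after PB+RA. Enrichment was 9.14, 9.0, 11.3 and 9.32 in DMSO, 8.67, 8.46, 9.07 and 9.85 with PB, 8.06, 7.40, 7.1 and 6.80 with RA, and 7.60, 6.24, 9.31 and 7.54 with PB+RA. All RA libraries lay below DMSO while the others overlapped it, and no treatment passed the test (adjusted p = 0.799, 0.0913 and 0.0977 by limma for PB, RA and PB+RA). At the other end of the scale, H2BC3 and H3C3 had the lowest start-site concentration, 7.53 in DMSO, 7.47 after PB, 7.26 after RA and 7.29 after PB+RA. Its enrichment of 3.58 to 4.27 in DMSO overlapped that of each treatment.

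Adding one drug to the other gave few calls. PB+RA against PB called 1 region decreased and 1 increased of 30, against 5.65% and 10.8% of all regions. The decreased one was the H2AC16 to H4C13 block (log2 difference -0.57, adjusted p = 0.00789 by limma). The increased one lay 9278 bases from H4C8, where PB+RA libraries read 2.21, 2.39, 0.768 and 1.40 (1.08, adjusted p = 0.0127). PB+RA against RA called 0 of 30 by limma, against 6% decreased and 8.39% increased, with 4 of 30 at an unadjusted p under 0.05. Of those, 2 passed the adjusted p but fell short of the minimum difference, in opposite directions: H2BC4 and H2AC6 at 0.49 (adjusted p = 0.0276) and H2BC11 to H2AC12 at -0.47 (adjusted p = 0.0451). The interaction of PB and RA, a test of whether the effect of PB differs with RA present, called 0 of 30 against 0.131% and 0.128%, with 3 of 30 at an unadjusted p under 0.05.

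The extent of the peaks differed between DMSO and treated libraries. In the H2AC16 to H4C13 block, DMSO replicates 2, 3 and 4 each had 1 broad peak across the region and DMSO replicate 1 had 2. Every treated library had 2 or 3 peaks there, with a gap between the start sites of H1-5 and H3C11. A broad peak carries 1 value over its whole length, so a split can raise the value at a start site while the mean over the region falls.

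**Figure D3:**
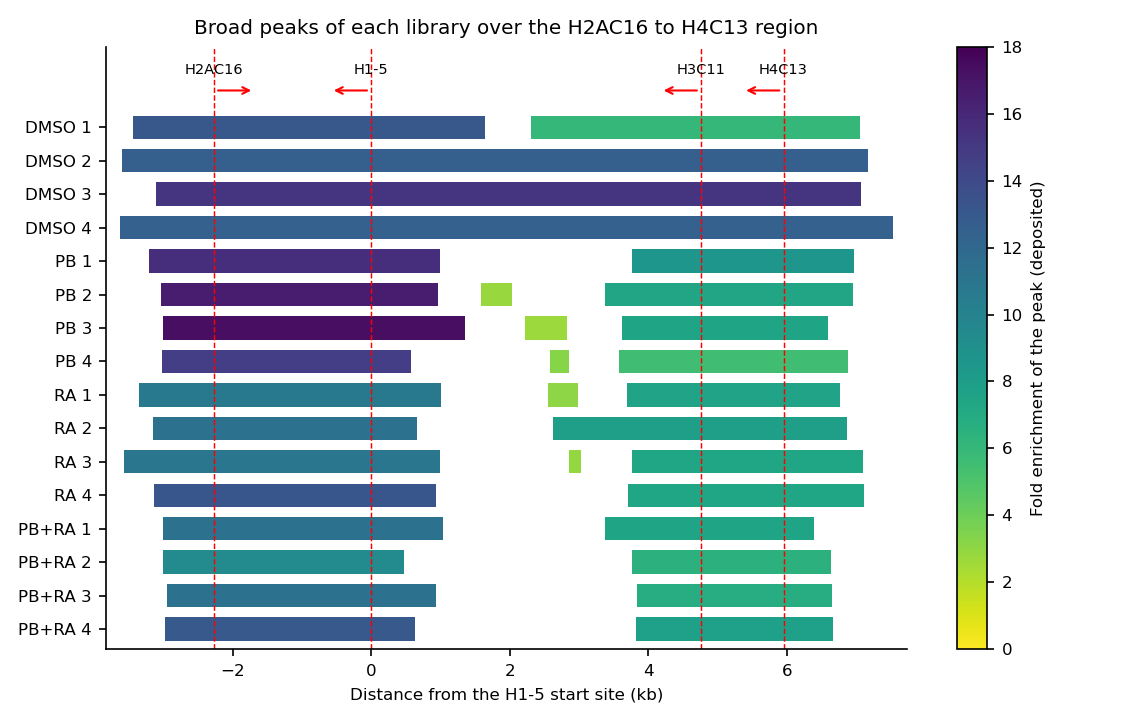
Broad peaks of each library over the block from H2AC16 to H4C13, by distance in kb from the H1-5 start site, with dashed lines at gene start sites and colour for the deposited fold enrichment of each peak. DMSO libraries have 1 or 2 peaks, and each of the 12 treated libraries has 2 or 3.

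Summed over the 17 start-site regions, treated libraries also had less of the sequence under peaks. Peaks covered 80.9, 87.4, 84.6 and 91.7% of their bases in the DMSO libraries. They covered 70.6, 74.0, 70.5 and 65.4% with PB, 75.7, 77.6, 77.7 and 76.4% with RA, and 67.7, 61.6, 71.5 and 67.8% with PB+RA. No treated library reached the DMSO range. These regions held 27, 25, 25 and 20 peaks in DMSO, 32, 29, 39 and 39 with PB, 35, 33, 35 and 33 with RA, and 31, 40, 34 and 34 with PB+RA, so every treated library had more peaks over fewer bases. The added peaks came mainly from 5 wide regions with several genes: H3C1 to H2AC4, H2BC6 to H4C5, H2BC11 to H2AC12, H2BC13 to H2BC15 and H2AC16 to H4C13. Over the 4 libraries of a group these gave 41 of the 42 peaks added with PB, 32 of 39 with RA and 39 of 42 with PB+RA. At H2BC3 and H3C3, at H1-4 and H2BC5 and at H1-3 each of the 16 libraries had 1 peak, and at H4C3 treated libraries had fewer peaks than DMSO (medians of 1 and 2).

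At the other 4436 wide start-site regions of the genome, covered shares overlapped between groups: 68.9, 75.7, 55.0 and 77.9% in DMSO, 59.2, 60.5, 58.5 and 53.5% with PB, 66.3, 72.1, 69.8 and 68.6% with RA, and 58.0, 49.1, 60.2 and 62.1% with PB+RA. DMSO replicate 3 was lowest of its group there but not at the histone regions. Peaks per 10 kb at those other regions also overlapped. They were 2.07, 1.74, 1.85 and 1.55 in DMSO and 1.97, 1.96, 2.42 and 2.38 with PB. With RA they were 2.22, 2.09, 2.06 and 1.92, and with PB+RA 1.78, 2.16, 2.1 and 2.27. At the histone regions they were 1.34, 1.24, 1.24 and 0.996 in DMSO and 1.44 to 1.99 in treated libraries. Region by region, all 4 PB libraries covered less than all 4 DMSO libraries at 8 of 17 histone regions, against 13.2% of all wide start-site regions. For RA this held at 4 of 17, against 6.81%, and for PB+RA at 7 of 17, against 16%. The 4 regions of RA were also among the 8 of PB: H1-2, H2BC6 to H4C5, H2BC13 to H2BC15 and H2AC16 to H4C13. The difference between histone and other regions was not tested, and peak extent also depends on read depth, which is unknown here.

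**Figure D4:**
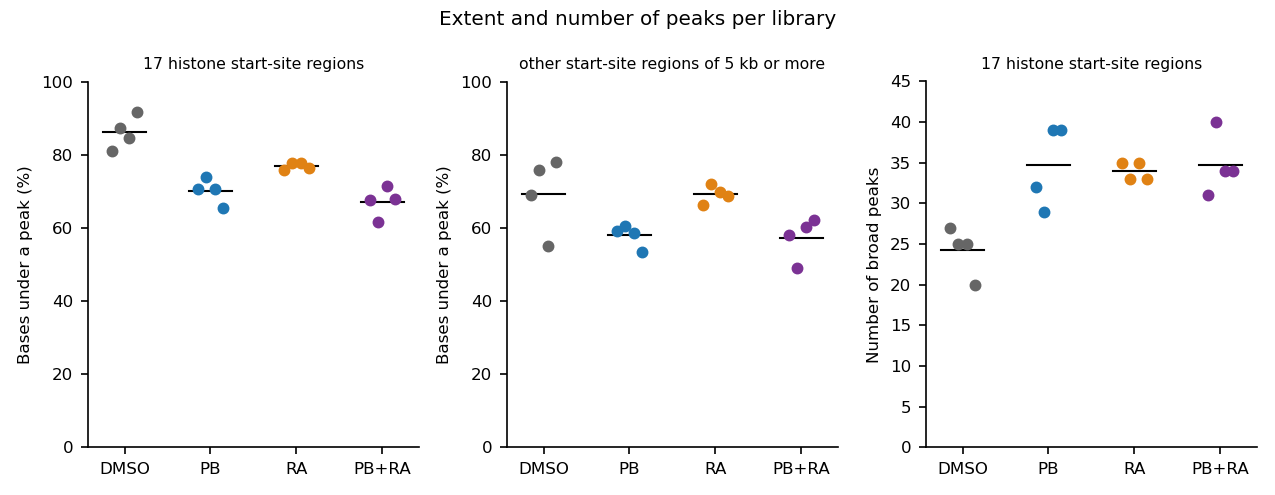
Percent of bases under a broad peak in each library, at the 17 histone start-site regions (left) and at the other 4436 wide start-site regions (middle), and number of peaks in the 17 histone regions (right), with a line at the group mean. At the histone regions the DMSO libraries (80.9 to 91.7%) lie above every treated library.

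Within 1 kb of each start site, the 5 histone families had much the same level and moved little. Median enrichment in DMSO was 12.1 for H1, 11.4 for H2A, 11.2 for H2B, 11.4 for H3 and 10.5 for H4 genes. With PB, the family medians of the log2 difference were 0.13, 0.17, 0.09, 0.09 and 0.27 in that order. With RA they were -0.16, -0.13, -0.14, -0.14 and -0.08, and with PB+RA -0.18, -0.02, -0.07, -0.06 and 0.07. Below 0 lay 12 of 50 windows after PB, 40 after RA and 32 after PB+RA, where 54.4, 44.9 and 52.1% of 15199 windows over all protein-coding start sites did. The PB and PB+RA counts differed between replicates 1 and 2 and replicates 3 and 4. With PB, 27 of 50 windows lay below DMSO in replicates 1 and 2 and 11 in replicates 3 and 4. With PB+RA 38 and 12 did, and with RA 41 and 36. Libraries deviated together by this split (median correlation of deviations over regions 0.11 on the same side of it and -0.12 across it), which was seen in the data and is not given by the labels. Genes that sit head to head share much of their window, and genes under the same broad peak share its value. In DMSO the windows of H4C1, HIST1H4B, H3C2 and H2AC4 all read 12.2, 12.8, 12.7 and 12.9. The 50 windows are therefore not independent, and families that share peaks have similar levels partly for that reason. Windows and regions were scaled between libraries with separate factors, so their differences do not share a scale. How far the counts below 0 rest on this scaling was not tested.

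Single start sites that passed the test were few. With PB, 1 of 50 windows was called, decreased, at H1-6, whose start site lies under no peak, against a background of 3.18% decreased and 1.13% increased. With RA, 3 were called decreased, against 0.447% decreased and 1.03% increased: H1-6, H2AC4 and H2BC6. At the H2A gene H2AC4, DMSO libraries read 12.2, 12.8, 12.7 and 12.9 and RA libraries 8.16, 8.87, 6.83 and 8.76, without overlap (log2 difference -0.58 ± 0.10, SE; adjusted p = 0.0058 by limma). These DMSO values belong to 1 broad peak over the whole region from H3C1 to H2AC4. Each RA library had 2 or 3 peaks in that region. With the same DMSO values, H4C1 differed by 0.23 with RA and HIST1H4B by -0.46. Whether the decrease at H2AC4 reflects more than the position of the split was not tested. At the H2B gene H2BC6, DMSO libraries read 9.83, 7.69, 11.3 and 7.29 and RA libraries 4.60, 4.88, 5.10 and 6.06, again without overlap (-0.69, adjusted p = 0.0385). The window of H4C4 had the same values in all DMSO libraries but replicate 1, and it differed by 0.19 with RA.

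With PB+RA, 3 windows were called decreased, against 8.28% decreased and 4.92% increased: H1-6, H2BC6 and H4C13. H2BC6 read 4.19, 4.33, 5.79 and 5.98 with PB+RA (-0.72 ± 0.16, SE; adjusted p = 0.00672 by limma). The H4 gene H4C13 read 6.73, 11.2, 11.4 and 10.9 in DMSO and 4.60, 5.24, 7.05 and 6.22 with PB+RA, where only DMSO replicate 1, the library with a split peak, falls in the PB+RA range (-0.70 ± 0.16, SE; adjusted p = 0.0072). A further 6 windows passed the adjusted p without reaching the minimum difference. Higher were the H4 genes H4C5 at 0.46 (adjusted p = 0.0207) and H4C1 at 0.44 (adjusted p = 0.0409). Lower were H4C9 at -0.45 (adjusted p = 0.0174) and HIST1H4B at -0.36 (adjusted p = 0.0351), also H4 genes, H2AC4 at -0.39 (adjusted p = 0.0156) and H3C11 at -0.47 (adjusted p = 0.0392). With RA the same held for HIST1H4B at -0.46 (adjusted p = 0.0442) and H3C2 at -0.46 (adjusted p = 0.0261). In DMSO, H4C1, HIST1H4B, H3C2 and H2AC4 share the value of 1 broad peak, so their differences are not separate measurements of each gene.

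PB+RA against PB called 2 windows decreased, against 0.961%, both in the H2AC16 to H4C13 block. At H2AC16, PB libraries read 13.4, 12.7, 18.3 and 19.6 and PB+RA libraries 8.29, 7.88, 11.6 and 10.2, without overlap (-0.69, adjusted p = 0.023 by limma). At H1-5, PB libraries read 13.9, 14.3, 21.2 and 17.7 and PB+RA libraries 9.61, 6.73, 13.4 and 9.76, also without overlap (-0.72, adjusted p = 0.0405). PB+RA against RA called 2 windows increased, against 1.22%, at the head-to-head pair H2AC15 and H2BC15, which share 1 value (0.54, adjusted p = 0.0419). RA libraries read 10.3, 10.8, 10.0 and 11.1 there and PB+RA libraries 15.9, 13.5, 21.2 and 13.7. The interaction called 0 of 50 windows by limma, against 0.0132% in each direction, with 4 of 50 at an unadjusted p under 0.05.

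**Figure D5:**
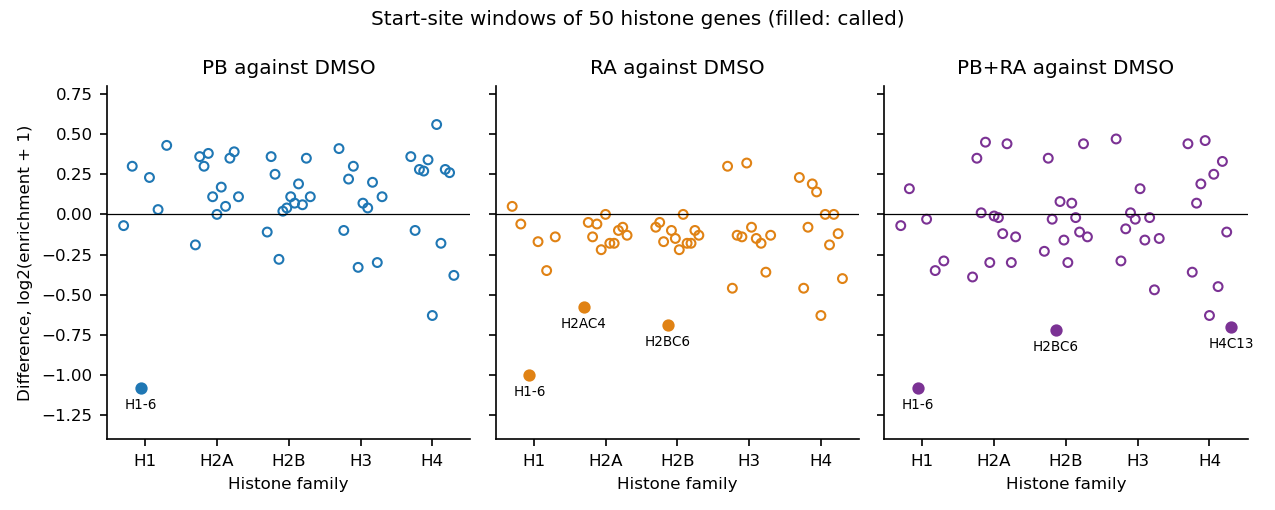
Difference from DMSO in log2(enrichment + 1) within 1 kb of each of the 50 histone start sites, by family, with 1 panel a treatment and filled points for called windows. With RA 40 of 50 lie below 0 and with PB 12 do.

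The regions beside start sites were weak and often without a peak. In DMSO 7 to 11 of the 13 had a peak in a library, against 5 to 8 with PB, 7 to 8 with RA and 4 to 7 with PB+RA. The one 593 bases from H1-6 (chr6:26108956-26110187) read 1.54, 1.70, 0 and 1.63 in DMSO, 0 in all 4 PB and all 4 RA libraries, and 0, 0, 0.695 and 0 with PB+RA. It was called decreased with each treatment (adjusted p = 0.0399, 0.0242 and 0.0434 by limma). The one 3190 bases from H2BC6 (chr6:26180225-26180799) read 2.80, 0.961, 0 and 0.810 in DMSO and 0 in all treated libraries, and was called with RA (adjusted p = 0.0371) and PB+RA (adjusted p = 0.0233) but not with PB (adjusted p = 0.0563). The RA call near H2BC6 was lost on leaving out DMSO replicate 1, 2 or 4 or any RA replicate (differences from -0.62 to -0.96). In both, 1 DMSO library is also at 0, so the groups overlap.

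A further 3 were called with PB+RA, each at 0 in all PB+RA libraries and in 1 DMSO library. The region 5639 bases from H2BC5 (chr6:26164013-26164685) read 1.54, 2.38, 1.07 and 0 in DMSO (adjusted p = 0.0434 by limma). The region 4739 bases from H4C5 (chr6:26209577-26210830) read 3.20, 1.95, 0.381 and 0 (adjusted p = 0.0391). The region 6274 bases from H2BC13 (chr6:27768266-27769433) read 1.58, 2.44, 0 and 1.77 (adjusted p = 0.0273). Leaving out DMSO replicate 1 or DMSO replicate 2 ended each of these 3 calls, with differences from -0.68 to -1.09, and the region near H2BC6 lost its PB+RA call without DMSO replicate 1 (-0.62). Calls were also lost on leaving out a PB+RA library. Of the 8 PB+RA calls in the cluster, 4 were kept without PB+RA replicate 1 or 2 and 5 without replicate 3 or 4.

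Some flanks showed other patterns. The region 5525 bases from H2BC6 had a mean concentration of 4.30 in DMSO, 3.86 after PB, 4.47 after RA and 2.99 after PB+RA. It had a peak in 3 RA libraries, 1 DMSO library, 1 PB library and no PB+RA library. The region 4886 bases from H2BC9 had concentrations of 5.02, 3.92, 5.31 and 5.19, and enrichment of 0.480, 0, 1.85 and 0.779 in DMSO against 0.482, 1.92, 0.946 and 3.04 with RA. The region 4093 bases from H2BC11 went from 6.46 to 5.53 after PB, 6.04 after RA and 5.73 after PB+RA, and the region 8467 bases from H2BC17, the strongest flank, was 7.21, 7.08, 7.09 and 7.40. The short region 3311 bases from H2BC5 was 3.0, 3.37, 2.97 and 2.74. None of these was called with any treatment against DMSO.

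Histone genes outside the cluster were compared next. A list of 17 histone genes of other clusters had 6 genes with a region within 10 kb, in 5 regions, and limma called 0 with any treatment, with 1, 2 and 1 regions at an unadjusted p under 0.05 for PB, RA and PB+RA. Among 11 histone variants, CENPA, the centromeric H3, was called decreased with PB (log2 difference -0.87, adjusted p = 0.0182) and PB+RA (-1.41, adjusted p = 6.72e-05). These 11 genes had 26 regions. With PB+RA, regions at H2AX and MACROH2A1 were also called decreased, and with RA 1 at MACROH2A1 was called increased. Decreased regions were 3.85% of the 26 with PB and 11.5% with PB+RA, at or below the 3.97 and 11.9% of all regions, so these are single regions and no result for the variants as a group.

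Genes that make, process and deliver histones had calls in both directions with each treatment. Of 40 such genes (histone gene transcription, 3′ end processing of histone mRNA, histone chaperones and factors of the G1/S switch), 39 had a region within 10 kb, 81 regions in all. With PB, 6 genes had a decreased region (CDK2, E2F1, CHAF1A, CHAF1B, ASF1B and TONSL) and 4 an increased one (POU2F1, CCNE1, CPSF3 and ASF1A). With RA, 2 had a decreased region (E2F1 and NAP1L4) and 3 an increased one (CASP8AP2, ERI1 and ASF1A). With PB+RA, 16 had a decreased region and 5 an increased one. The median log2 differences over the 81 regions were -0.09, -0.10 and -0.21, against 0.00, 0.01 and 0.00 over all regions. By regions the calls were 6, 2 and 19 decreased and 4, 4 and 6 increased of 81, against the backgrounds given above for the 3 comparisons. Decreased regions were 7.41, 2.47 and 23.5% of the 81 for PB, RA and PB+RA, and 6.67, 10 and 26.7% of the 30 cluster regions. The 81 lie both over and beside start sites. Of all regions over a protein-coding start site, 9.11, 4.36 and 18.1% were decreased. Of those at least 5 kb wide, 10.2, 8.04 and 26.3% were. The calls at these genes were made without GC centring.

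The decreased genes included histone chaperones, which hand new H3-H4 to DNA. At CHAF1B, a subunit of the replication-coupled chaperone CAF-1, enrichment was 7.90, 10.5, 11.8 and 10.5 in DMSO, 3.84, 3.57, 2.48 and 1.96 with PB and 1.90, 2.56, 0.414 and 4.01 with PB+RA. Neither treatment overlapped DMSO (PB -1.51 ± 0.28, SE, adjusted p = 0.00188; PB+RA -1.92, adjusted p = 2.55e-05). At ASF1B, an H3-H4 chaperone, DMSO libraries read 9.12, 7.76, 7.66 and 7.47 and PB libraries 3.76, 4.13, 3.84 and 4.88, also apart (-0.81 ± 0.17, SE; adjusted p = 0.00405). At HJURP, the chaperone of CENPA, DMSO libraries read 7.54, 6.87, 6.37 and 6.69 and PB+RA libraries 1.62, 1.62, 2.44 and 3.15 (-1.32, adjusted p = 6.03e-06).

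Increases were mostly in regions away from the start site. A region 3811 bases from ASF1A, the paralog of ASF1B, read 0, 0.312, 0.545 and 0 in DMSO and 2.16, 2.16, 2.14 and 2.15 with PB (adjusted p = 0.000412 by limma), and was called increased with RA (1.43, adjusted p = 4.33e-05) and PB+RA (2.03, adjusted p = 4.34e-07) as well. ERI1, an exonuclease that trims histone mRNA ends, has a weak region over a start site at chr8:8866768-8873260. There DMSO libraries read 0.813, 0.549, 0.511 and 0.731, RA libraries 3.70, 4.01, 5.13 and 3.94 and PB+RA libraries 3.45, 4.23, 4.63 and 3.78 (1.65, adjusted p = 5.95e-06, and 1.6, adjusted p = 4.92e-06). Its stronger start-site region (chr8:8859817-8862659) read 4.86, 4.81, 7.11 and 4.93 in DMSO. That region was not called with RA (0.14, adjusted p = 0.72) or PB+RA (0.19, adjusted p = 0.498). With PB, CPSF3, the nuclease that cuts histone pre-mRNA, had an increased region 8565 bases away (1.08, adjusted p = 0.0133). With RA, CASP8AP2 had one 9716 bases away (1.21, adjusted p = 0.000137), and a region 5310 bases from E2F1 was decreased (-0.87, adjusted p = 0.00101).

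SLBP and NPAT, named after their values were seen, act directly in histone gene expression. SLBP binds the stem-loop that replaces the poly(A) tail of histone mRNA, and its region was called decreased with PB+RA (-1.26, adjusted p = 0.000267 by limma) but not with PB (-0.69, adjusted p = 0.0601). NPAT, the coactivator of histone genes, was not called with any treatment (0.10, -0.07 and 0.21 for PB, RA and PB+RA, with adjusted p = 0.823, 0.879 and 0.352).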

How the data were processed

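H3K27ac ChIP-seq of SK-N-BE(2)C cells was analysed in 16 ChIP libraries, 4 in each of the groups DMSO, PB, RA and PB+RA (PBandRA in the labels). Titles of the samples gave groups and replicate numbers. Per the submitters' processing notes, the authors used fastp 0.12.4 for trimming and Bowtie2 2.4.4 for alignment to hg19, called broad peaks per library with MACS2 2.2.7.1 and compared regions with DiffBind 3.4. Deposited with each peak are its ratio, a fold enrichment over input, and its −log10 q. The authors' comparison tables hold, per group, a deposited mean concentration (log2), which was used. They also hold folds, p-values and FDRs for each comparison, which were not used.

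Counts per library were not used here, so each library's peak ratio was averaged over each region, with uncovered bases at 0. It was divided by a median-ratio scale factor (0.691 to 1.25, over 26508 regions with a peak in all 16 libraries) and put on the log2(value + 1) scale. The limma-trend test (limma 3.58.1, R 4.3.3) was fitted over all 92108 regions and 16 libraries (residual df 12, prior df 10.8) with Benjamini-Hochberg adjustment, and was tested on simulated data. The same test was run over 15199 start-site windows of 1 kb on each side, an analysis added after the regions were seen to merge several genes. Windows were scaled with factors of their own (0.658 to 1.33). These differ from the region factors, as at DMSO replicate 3 (1.33 against 1.07) and PB+RA replicate 3 (0.816 against 1.03). A gene's regions are those within 10 kb of its start site. Scaling sets the typical region near no difference, so a change in total acetylation would not be seen. A share of 1.29% of 216964 words of 50 bases in the cluster regions occurs there more than once, and reads from such near-identical stretches are uncertain.

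Genes, promoters and GC content came from the GRCh37 primary assembly with GENCODE v44 lifted to it. Values in every library are given for called regions, for the region with the highest concentration of each histone family, for the 4 largest decreases and 2 largest increases in concentration per treatment and for the widest region. Values for at most 4 genes per comparison are given from the list of histone supply genes. The cluster regions and gene lists were chosen with earlier results of these data known. Replicate numbers did not pair the samples (correlations of deviations from -0.057 to 0.20 over 24 pairs with the same number). Alternatives covered scaling, pseudocount, peak filters, member rule, GC centring, blocks and leaving out each library. Some marker genes are not reported here.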

Additional observations from a re-analysis of the deposited data

Results flagged for a closer look

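In 60 groups of 4 libraries at the regions tested, 10 had a library standing apart from the other 3, by a rule that flags about 1 in 20 by chance for continuous values. In most of them it was the only library of its group with a peak: PB+RA replicate 3 at the region 593 bases from H1-6 (0.695), DMSO replicate 1 at the region 3311 bases from H2BC5 (1.21), PB replicate 1 at the region 5639 bases from H2BC5 (2.29), DMSO replicate 2 and PB replicate 4 at the region 5525 bases from H2BC6 (1.01 and 1.08), and PB replicate 4 at the region 4739 bases from H4C5 (1.06). PB replicate 2 was likewise alone with a peak at the region 4886 bases from H2BC9 (0.829). The rule always flags a group with 1 peak and 3 libraries at 0, so the count of 10 cannot be set against chance. DMSO replicate 3 was the only DMSO library without a peak 593 bases from H1-6 (0). At the widest region, H2BC13 to H2BC15, DMSO replicate 3 was high (11.3). At the region 8467 bases from H2BC17, PB replicate 3 was high (7.36).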

How the results depend on the processing

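No call reversed its direction among the values counted next. These values do not cover every named region in every comparison, and changes of sign without a call are not part of this statement. Of 160 values with 1 library left out, 106 kept their call status, 49 lost and 5 gained it. Of 219 values under other alternatives, 179 kept it, 24 lost and 16 gained it. Peak values cannot show a difference below the level at which a peak is called, and depth per library is unknown. Where a result changed, the cause was not tested.

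Called cluster regions against DMSO were 2 after PB, 3 after RA and 8 after PB+RA. Over start sites alone they were 0, 1 and 3, and with a minimum difference of 1 they were 1, 1 and 3. With peaks of −log10 q of at least 5 they were 0, 1 and 3, with the highest peak's enrichment 1, 1 and 2, and over regions with a peak in 8 libraries 1, 1 and 4. Members within 3 kb gave 1 with PB and 4 with PB+RA, a pseudocount of 2 gave 1 with PB, quantile normalization gave 5 with RA, and peaks covering at least 0.5 of the region gave 3 with PB and 4 with PB+RA. Equal counts can hide other regions. The 1 PB call with the highest peak and the 3 with at least 0.5 covered shared 0 with the 2 main PB calls. GC centring gave 6 with RA and 15 with PB+RA. A block for replicates 1 and 2 against 3 and 4, chosen after seeing the data, gave 5 with RA.

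The replicate numbers did not pair the samples. The replicate block left 2, 3 and 8 calls for PB, RA and PB+RA, 2 for PB+RA against PB and 0 for PB+RA against RA, and GC centring with the replicate block gave 4, 5, 16, 4 and 3. Of 16 libraries, 6 correlated best with one of their own number.

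PB+RA against PB called 2 regions. It called 1 over start sites, within 3 kb, with a minimum of 1, without scaling, with quantile normalization, with −log10 q of at least 5 or with the highest peak, and 0 with at least 0.5 of the region covered. PB+RA against RA called 0. It called 2 with no minimum or a pseudocount of 0.5, and 1 with quantile normalization, with at least 0.5 covered or with GC centring. The interaction called 0, and 1 with at least 0.5 covered.

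Leaving out 1 library gave 0 to 3 calls for PB, 1 to 4 for RA, 3 to 6 for PB+RA, 1 to 3 for PB+RA against PB, 0 to 2 for PB+RA against RA and 0 for the interaction. With PB, 0 were left without DMSO replicate 2 or 4 or PB replicate 1, 3 or 4. With RA, 1 was left without DMSO replicate 2, and of the 4 called without DMSO replicate 4 only 1 was among the 3 main calls. With PB+RA, 3 were left without DMSO replicate 1. The region 593 bases from H1-6 lost its calls without DMSO replicate 1, 2 or 4 (differences from -0.72 to -0.95). Start-site windows, called at 1, 3, 3, 2 and 2 in the same order of comparisons, gave 1 to 3, 1 to 3, 3 to 6, 0 to 4 and 0 to 4, and 0 for the interaction. Without scaling, the windows called were 1 for RA, 1 for PB+RA against PB and 1 for PB+RA against RA, and quantile normalization gave 0 for the last.

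Concentrations lower by more than 0.5 numbered 9, 8 and 12 of 30 for PB, RA and PB+RA. A threshold of 1 gave 3, 3 and 6, start-site regions alone 1, 3 and 5, and members within 3 kb 2, 4 and 6. Against GC classes there were 18 for RA and 20 for PB+RA. For histone supply genes within 3 kb, increased genes were 1, 1 and 2 for PB, RA and PB+RA, and decreased genes 0 for RA.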
